A study of Homo sapiens with 5 samples.

Results

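The ADAM metalloproteases *ADAM8*, *ADAM9*, *ADAM10*, *ADAM15*, *ADAM17*, *ADAM19*, and *ADAM28* were examined by RNA-seq in TF-1 cells with or without a knockout of *MTSS1*. These 7 genes were listed by name with the knockout against control comparison already known, so their own differences in that comparison are given as a description and not as a test. Of the 7 genes, 6 had a row among the 27328 Ensembl genes of the count table. *ADAM19* was not analysed here. The TF-1 line comes from human AML and carries erythroid and myeloid progenitor markers. Both groups were transduced with the same lentiviral vector for Cas9 and GFP, sorted for GFP, and cloned from single cells, and each library was made from a pool of 4 such clones. The 2 control pools (sgCtrl, pools 1 and 2) carried an sgRNA against the *Renilla luciferase* gene, which human cells lack. The 3 knockout pools carried sgMTSS1_1, sgMTSS1_2, or sgMTSS1_3, so that each knockout replicate has an sgRNA of its own, and loss of the protein had been checked in the clones by immunoblot. Another control pool and a pool with sgMTSS1_4, which an outlier test had removed from the study, were not analysed here.

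ADAM proteins combine a disintegrin with a metalloprotease domain. Most are anchored in the membrane and cut the ectodomains of neighbouring membrane proteins, a step called shedding, which releases cytokines and growth factors and starts Notch signaling. They are made as inactive precursors whose pro-domain is removed by furin-like convertases or, in the case of ADAM8, by the enzyme itself. ADAM10 reaches the cell surface with tetraspanins of the TspanC8 group. ADAM17, the TNF-converting enzyme, depends on the inactive rhomboids iRhom1 and iRhom2 (*RHBDF1*, *RHBDF2*), which are in turn stabilized by FRMD8. TIMP proteins inhibit some of the mature enzymes but not all of them, and γ-secretase cuts the membrane stub that shedding leaves behind. In blood, ADAM8 is known from granulocytes and monocytes and ADAM28 from lymphocytes, whereas ADAM9, ADAM10, ADAM15, and ADAM17 are found in many cell types.

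Reads were counted from the 3′ ends of transcripts, and levels are given as CPM, that is counts scaled to library size, after TMM normalization. Such a read stands for a transcript and not for a stretch of its length, so CPM was not divided by length where genes are compared. Total counts lay between 2849979 and 3408827 in the control and between 5442639 and 8854899 in the knockout libraries, and the lowest level shown by 3 counts lay between 0.389 and 0.938 CPM. Depth thus differs with the group, and libraries thinned to the smallest total were fitted as an alternative. Mitochondrially encoded genes took 13.9% of the counts in control pool 1 and between 6.71% and 8.63% in the other libraries. All 11 TF-1 progenitor markers examined, among them *CD34*, *CD33*, *KIT*, and *GATA1*, had counts in each of the 5 libraries. *MTSS1* mRNA was at 204 and 87.9 CPM in control pools 1 and 2 and, in the order of their sgRNA numbers, at 104, 139, and 49.9 CPM in the knockout pools. This order of libraries is kept throughout. The ranges overlap, and the mRNA therefore does not check the labels of the libraries. In bulk RNA, fewer cells with a transcript and less of it per cell cannot be told apart.

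*ADAM8* was nearly absent from the control pools and present in each of the knockout pools. This gene (ENSG00000151651, GRCh38, minus strand of chromosome 10, 133262420 to 133276868) had 2 counts in control pool 1 and 0 in control pool 2. It had 59, 58, and 167 counts in the knockout pools. On the CPM scale the control pools were at 0.625 and 0 and the knockout pools at 7.65, 10.5, and 29.1. The groups do not overlap, an order with each knockout pool above both control pools that 22.2% of all tested genes had, and the control libraries lie below the level that 3 counts stand for. Within the knockout, the sgMTSS1_3 pool was 3.80-fold above the lowest pool, so that the pools also differed among themselves.

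Summed over libraries, 284 counts in the knockout stood against 2 in the control, a ratio of 49.0 after scaling (95% exact interval 13.4 to 407). This interval covers counting error only, because counts were pooled over libraries, and it leaves out the spread between pools. Copies of a molecule made by PCR were not told apart, so it may be too narrow even for counting error. The fitted log2-fold change of *ADAM8* was 5.57, with a standard error (SE) of 1.03, a value that depends on the small count added to the control. Across the alternatives that could be fitted, its log2-fold change lay between 4.62 and 9.46, the higher one without control pool 1, where the single control library left had no count. A gene is said to pass here when its p-value in the quasi-likelihood test of edgeR, adjusted after Benjamini and Hochberg over all 14391 tested genes, is under 0.05 and its log2-fold change is above 1 or below −1. Of all tested genes, 4.17% passed as higher and 1.01% as lower in the knockout. *ADAM8* was the 1 of the 6 measured members that passed, and since it had been listed with this result known, nothing is read from that count. It did not pass without control pool 2 or without the sgMTSS1_1 pool, and with at least 10 counts required in every library it was not among the genes tested.

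The promoters of *ADAM8* and of *FRMD8*, the iRhom partner, are shown because these are the protease and the protease cofactor with the largest difference between the groups. Each line holds the 250 bases before the gene start in RefSeq on GRCh38.p14, read 5′ to 3′ on the strand of the gene, chr10:133276869-133277118 for *ADAM8* (minus strand) and chr11:65386387-65386636 for *FRMD8* (plus strand). Capitals mark matches to the GC box GGGCGG on either strand.
ADAM8: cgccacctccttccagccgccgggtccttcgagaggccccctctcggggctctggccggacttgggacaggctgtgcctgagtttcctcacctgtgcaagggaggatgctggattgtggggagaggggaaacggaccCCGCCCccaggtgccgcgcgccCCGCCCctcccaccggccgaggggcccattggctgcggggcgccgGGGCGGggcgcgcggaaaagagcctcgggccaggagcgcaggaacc
FRMD8: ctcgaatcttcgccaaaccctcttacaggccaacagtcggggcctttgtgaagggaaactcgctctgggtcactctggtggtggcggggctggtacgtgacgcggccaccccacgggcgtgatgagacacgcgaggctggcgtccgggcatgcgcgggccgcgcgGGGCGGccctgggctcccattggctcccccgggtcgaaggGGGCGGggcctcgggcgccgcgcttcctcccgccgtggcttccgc
The window of *ADAM8* had 3 GC boxes and that of *FRMD8* had 2, and 42.6% of 35116 promoter windows of the same length had at least 1. Both windows were rich in G and C, with 73.6% for *ADAM8* and 72.0% for *FRMD8*, against a median of 58.0% over all windows. Neither held a match to the AP-1 site TGANTCA, the cAMP response element TGACGTCA, the E-box CACGTG, the ETS site CCGGAAGT, the TATA box TATAAA, or the CArG box, searched on both strands. Among all windows, these motifs occurred in 6.57% (AP-1), 1.65% (cAMP response element), 6.34% (E-box), 3.42% (ETS), 10.7% (TATA box), and 1.16% (CArG box). The windows of *ADAM10*, *ADAM15*, and *ADAM17* taken in the same way had 1, 6, and 3 GC boxes. Those of *ADAM15* and *ADAM17* lie inside the gene as placed by GENCODE, so they may not be promoters. Those of *ADAM10* and *FRMD8* overlap an exon of their own gene there.

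Marker transcripts of the monocyte and granulocyte lineages, in which ADAM8 is known, were close to 0 in both groups where they had a row. Of 9 monocyte and macrophage markers, 6 had a row in the table, and their summed level was 2.98 to 5.94 CPM in the control and 2.35 to 2.98 CPM in the knockout pools. Of 10 granulocyte markers, 5 had a row, with a summed level of 2.50 to 4.77 CPM in the control and 0.908 to 2.61 CPM in the knockout pools. *CD14* from the first of these lists and *MPO* from the second had at most 1 and 6 counts in any library. None of these markers had enough counts to be tested. The summed level of 4 lymphocyte markers was 10.01 to 14.3 CPM in the control and 5.06 to 10.96 CPM in the knockout pools. Epithelial and fibroblast markers summed to 66.3 to 136 CPM in the control and 146 to 159 CPM in the knockout pools. Nearly all of that came from the keratins *KRT8* and *KRT18*, the latter at 53.5 and 110 CPM in the control and 135 to 138 CPM in the knockout pools, and their part in the results was not tested.

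**Figure D1:**
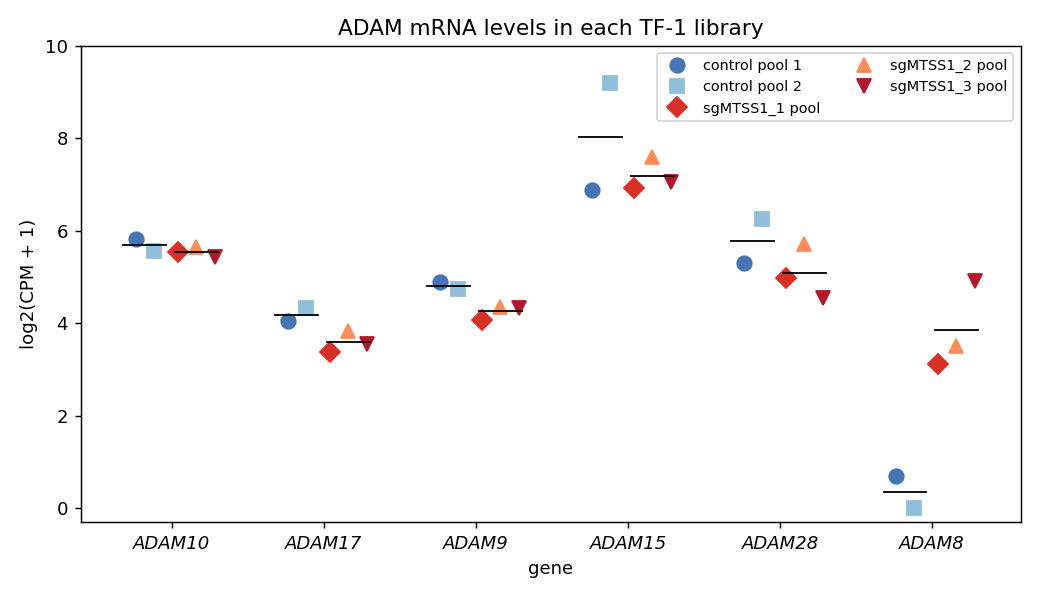
mRNA levels of the 6 measured ADAM genes, as log2(CPM + 1), in the 2 control and 3 knockout libraries. Symbols are single libraries and short lines are group means on that scale. *ADAM8* is at 0.625 and 0 CPM in the control and at 7.65 to 29.1 CPM in the knockout pools, whereas each of the other 5 genes is present in all libraries.

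*ADAM10* and *ADAM17*, the main shedding enzymes, were present in all pools, and no knockout pool exceeded the highest control pool. *ADAM10* (ENSG00000137845, minus strand of chromosome 15, 58588809 to 58749791), which makes the first cut in Notch receptors, was at 55.3 and 46.5 CPM in control pools 1 and 2. In the knockout pools it was at 45.7, 49.1, and 42.3 CPM. The ranges overlap, and the log2-fold change was −0.16 (SE 0.28). Pools of the same group were close to each other, with the highest 1.19-fold above the lowest in the control and 1.16-fold in the knockout.

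*ADAM17* (ENSG00000151694, minus strand of chromosome 2, 9488486 to 9556732) was at 15.6 and 19.1 CPM in the control and at 9.47, 13.4, and 10.8 CPM in the knockout pools. Each knockout pool lay below both control pools. The log2-fold change was −0.63 (SE 0.34), and between −0.76 and −0.46 in the alternatives. *ADAM9* (ENSG00000168615, plus strand of chromosome 8, 38996754 to 39105445), a widely expressed sheddase, behaved alike in order but not in level. Its level was 28.8 and 25.6 CPM in the control and 15.95, 19.5, and 19.1 CPM in the knockout pools, again with no overlap. Its log2-fold change was −0.58 (SE 0.30). Of all tested genes, 19.2% had each knockout pool below both control pools, so that such an order is common in these libraries.

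*ADAM15* (ENSG00000143537, plus strand of chromosome 1, 155050566 to 155062775), whose disintegrin domain binds integrins, had the highest level of the 6 members in each library. It was at 117 CPM in control pool 1 and at 588 CPM in control pool 2, a 5.04-fold difference between replicates of the same group. The knockout pools, at 122, 192, and 132 CPM, lay between the control pools and close to the first. The log2-fold change was −1.25 (SE 0.55). It was 0.38 without control pool 2 and −1.98 without control pool 1, so that its sign rests on which control pool is used. *ADAM28* (ENSG00000042980, plus strand of chromosome 8, 24294069 to 24359014), which sheds the IgE receptor CD23, differed less between the control pools. It was at 38.8 and 75.7 CPM in the control and at 30.7, 51.6, and 22.4 CPM in the knockout pools. The highest pool was 1.95-fold above the lowest in the control and 2.3-fold in the knockout. The groups overlap, and the log2-fold change was −0.71 (SE 0.42), or −0.12 without control pool 2 and −1.11 without control pool 1.

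The order of these levels was nearly the same in all libraries. *ADAM15* came first throughout. *ADAM10* and *ADAM28* followed and exchanged places between libraries, and only in the sgMTSS1_3 pool did *ADAM8*, at 29.1 CPM, come between *ADAM10* and *ADAM28*. *ADAM9* was above *ADAM17* in each of the 5 libraries. *ADAM8* was the lowest of the 6 in both control pools and in the sgMTSS1_1 and sgMTSS1_2 pools. In the sgMTSS1_1 and sgMTSS1_2 pools its 7.65 and 10.5 CPM are near the 9.47 and 13.4 CPM of *ADAM17*. Both distances are smaller than the spread of either gene over the knockout pools. *ADAM8* made up 3.31%, 3.12%, and 11.4% of the summed CPM of the 6 members in the knockout pools. Without *ADAM15*, the summed level of the members was 139 and 167 CPM in the control and 110, 144, and 124 CPM in the knockout pools, ranges that overlap. Some of these genes share exons with others in the annotation, namely *ADAM15* with *DCST1* on its own strand, *ADAM17* with *IAH1*, and *ADAM9* with *TM2D2* on the opposite strand. *ADAM10* and *ADAM17* also have unnamed antisense transcripts, whereas *ADAM8* and *ADAM28* have no such overlap.

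Genes that act with the ADAM proteases were taken from lists by role, 93 genes in all, of which 58 were tested. In total, 4 of the 58 passed as higher and 1 as lower in the knockout, that is 6.9% as higher beside 4.17% of all tested genes. The median log2-fold change was −0.03, as for all tested genes, and these lists too were drawn up with earlier results known. The passing genes were *FRMD8*, *APH1A*, *PSEN2*, *TIMP3*, and *TSPAN5*. When any single knockout pool was left out, *FRMD8* was the 1 gene still passing, and *FRMD8* also passed in all other alternatives.

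**Figure D2:**
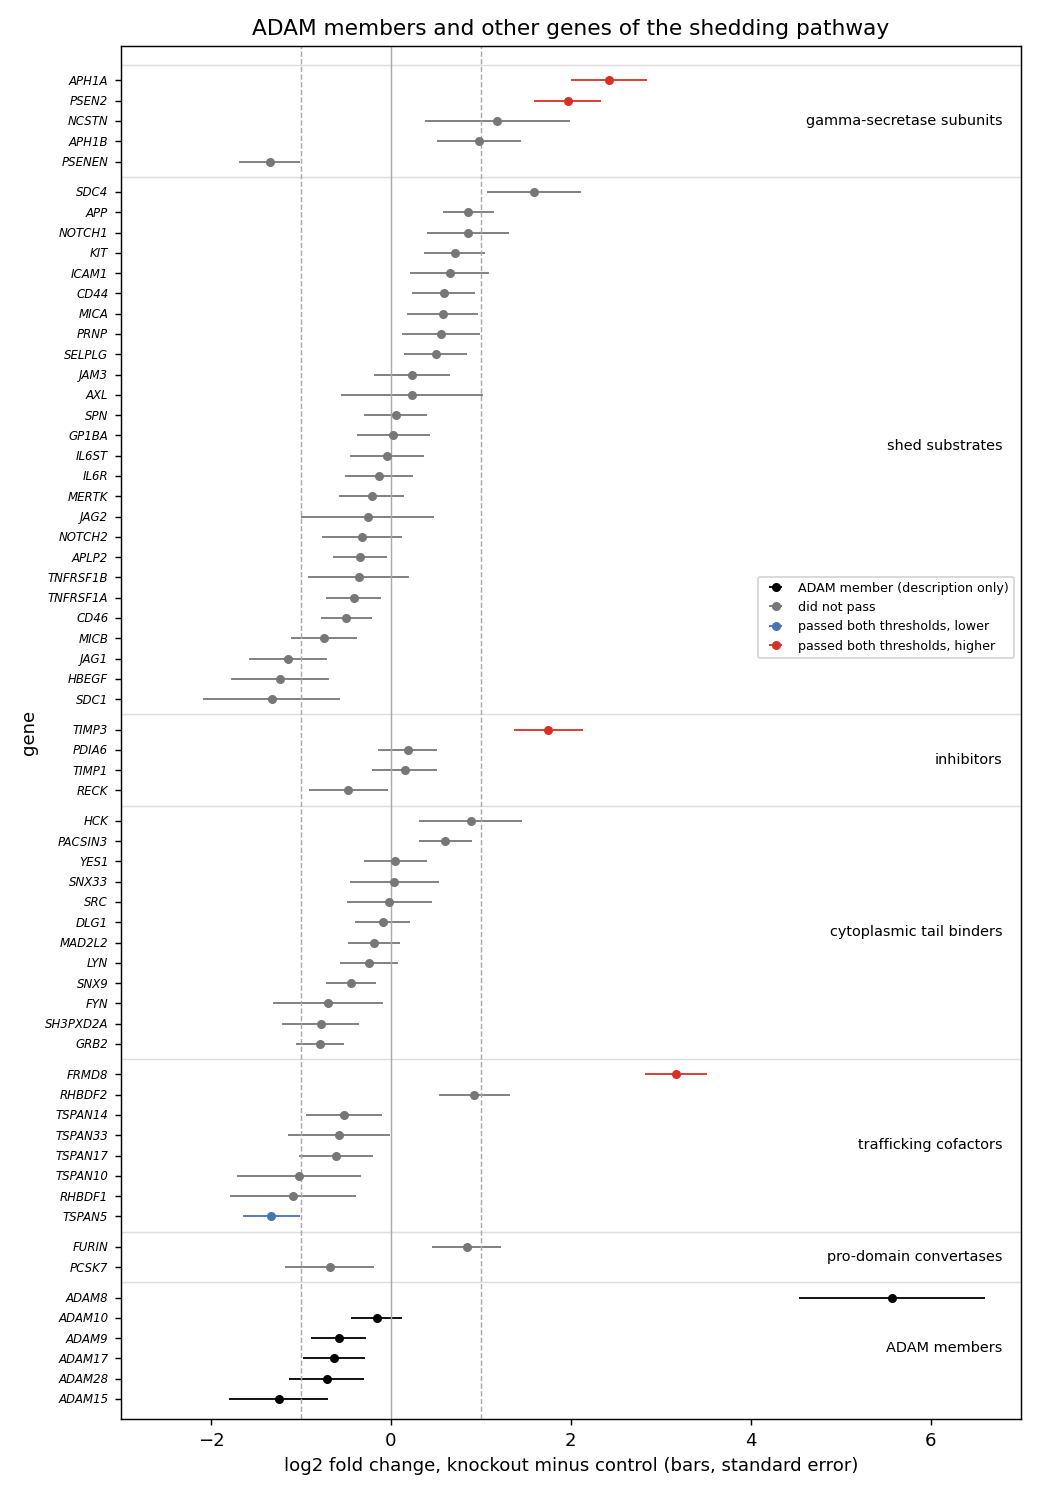
Fitted log2-fold changes, knockout minus control, of the 6 measured ADAM genes and of tested genes of the shedding pathway, grouped by role. Points are fitted values and bars are standard errors over 2 control and 3 knockout libraries, and dashed lines mark −1 and 1. Only *FRMD8*, *TIMP3*, *APH1A*, and *PSEN2* among the pathway genes passed as higher, and *TSPAN5* as lower.

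*FRMD8* (ENSG00000126391, plus strand of chromosome 11, 65386621 to 65413525), which encodes the partner that keeps iRhoms and ADAM17 at the cell surface, rose most. It had 43 and 38 counts in the control and 718, 620, and 748 counts in the knockout pools. This equals 13.4 and 11.3 CPM against 93.1, 112, and 130 CPM, with no overlap. The means were 12.4 ± 1.5 CPM (SD, n = 2) and 112 ± 18.5 CPM (SD, n = 3), a 9.02-fold difference. Its log2-fold change was 3.17 (SE 0.34, edgeR adjusted p = 0.00457). The alternatives gave between 3.04 and 3.32.

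*RHBDF2*, the iRhom that predominates in blood cells, was at 4.69 and 4.77 CPM in the control and at 8.82, 9.21, and 9.05 CPM in the knockout pools. These groups do not overlap, but the gene, with 15 and 16 counts in the control libraries, did not pass (log2-fold change 0.93, SE 0.40, edgeR adjusted p = 0.196). *RHBDF1*, the other iRhom, was at 4.77 CPM or less in each library. *FRMD8* and *ADAM17* thus lay in opposite order, *FRMD8* above and *ADAM17* below both control pools in each knockout pool.

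Among the TspanC8 tetraspanins, which carry ADAM10 to the cell surface, *TSPAN5* (ENSG00000168785, minus strand of chromosome 4, 98470367 to 98658611) fell. It was at 45.0 and 36.1 CPM in the control and at 12.6, 18.6, and 17.2 CPM in the knockout pools. The log2-fold change was −1.33 (SE 0.32, edgeR adjusted p = 0.0438). This call was close to the threshold, and *TSPAN5* did not pass without control pool 1 (log2-fold change −1.15), without any 1 of the knockout pools, or with either other filter on low counts (edgeR adjusted p = 0.0549 and 0.051). *TSPAN14*, the most abundant TspanC8 gene in these cells, was at 70.7 and 201 CPM in the control and at 71.7, 104, and 108 CPM in the knockout pools. Like *ADAM15*, it differed more between the control pools than between the groups (log2-fold change −0.52, SE 0.42, edgeR adjusted p = 0.499), and its log2-fold change was 0.45 without control pool 2. *TSPAN10*, *TSPAN17*, and *TSPAN33* did not pass either, and *TSPAN15* had too few counts to be tested.

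**Figure D3:**
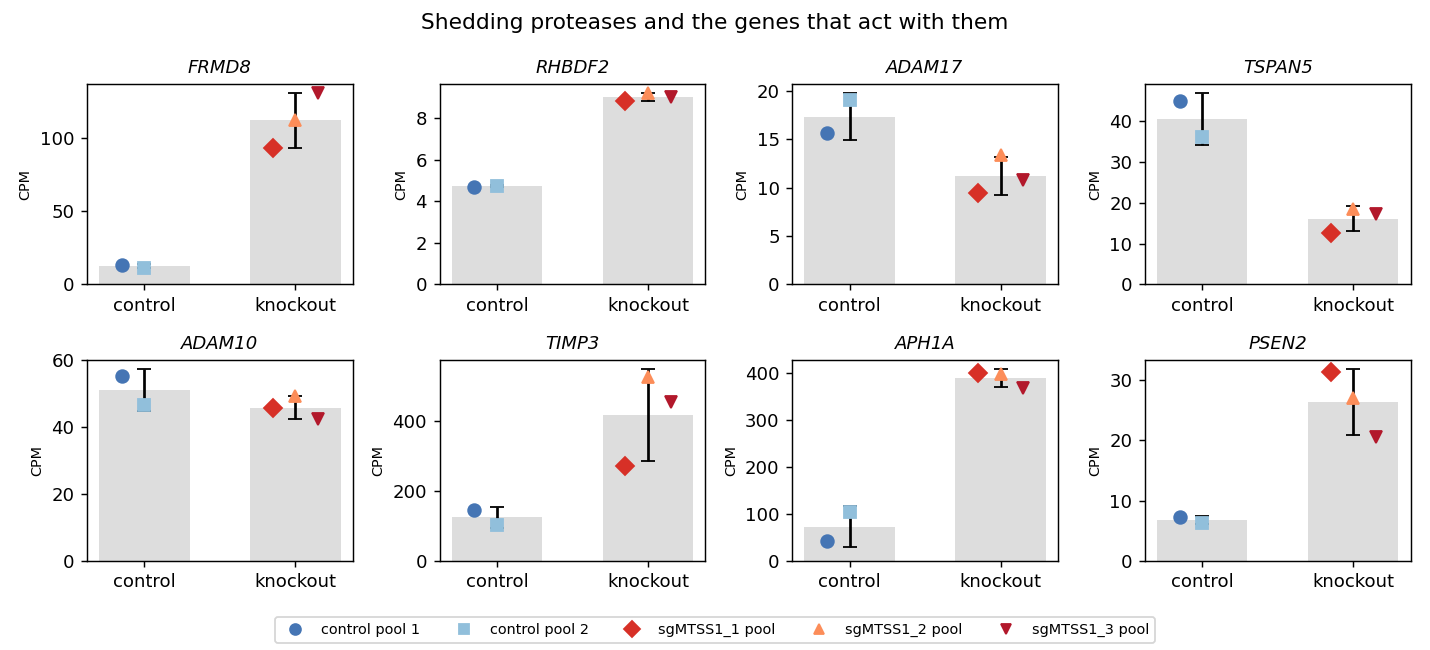
CPM of *ADAM17*, *ADAM10*, and 6 genes that act with them. Grey bars are group means, error bars are SD over 2 control and 3 knockout libraries, and symbols are single libraries. *FRMD8* goes from 11.3 and 13.4 CPM in the control to between 93.1 and 130 CPM in the knockout, while no knockout pool of *ADAM17* or *ADAM10* exceeds the highest control pool.

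Of the pro-domain convertases, *FURIN* was at 59.1 and 89.4 CPM in the control and at 85.5, 128, and 186 CPM in the knockout pools. The ranges overlap, and *FURIN* did not pass (log2-fold change 0.84, SE 0.39, edgeR adjusted p = 0.226). *PCSK7* was the other convertase tested, and of these 2 genes 0 passed in edgeR, 0 passed in DESeq2, and 0 had an unadjusted p-value under 0.05. Over all tested genes, 23.3% had such an unadjusted p-value, and 9.48% of those with a DESeq2 adjusted p passed in DESeq2. The 12 tested proteins that bind the cytoplasmic tails of ADAM proteases included Src family kinases and sorting nexins. Of these 12, 0 passed in edgeR and 0 in DESeq2. An unadjusted p-value under 0.05 was found for 1 of them, beside 23.3% of all tested genes, a count too small to compare. That 1 was the adaptor *GRB2*, at 135 and 137 CPM in the control and at 77.2, 82.7, and 76.6 CPM in the knockout pools (log2-fold change −0.79, SE 0.27, edgeR adjusted p = 0.116).

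*TIMP3* (ENSG00000100234, plus strand of chromosome 22, 32801705 to 32863041), the TIMP that inhibits ADAM17 and ADAM10, was higher in the knockout. It was at 144 and 103 CPM in the control and at 272, 524, and 453 CPM in the knockout pools, with no overlap. The log2-fold change was 1.75 (SE 0.39, edgeR adjusted p = 0.0349). *TIMP3* did not pass without control pool 2 (edgeR adjusted p = 0.0707) or without any 1 of the knockout pools, with log2-fold changes between 1.56 and 1.97 in these fits. *TIMP1*, at 151 and 68.5 CPM in the control and 137, 109, and 120 CPM in the knockout pools, overlapped between the groups (log2-fold change 0.15, SE 0.36, edgeR adjusted p = 0.843), and its log2-fold change was 0.85 without control pool 1 and −0.28 without control pool 2. *RECK*, a membrane-anchored inhibitor, and *PDIA6*, an isomerase that inactivates ADAM17, did not pass.

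Of 55 shed substrates, 45 had a row in the table and 26 were tested. With edgeR 0 passed, with DESeq2 0 passed, and 4 had an unadjusted p-value under 0.05, again a smaller share than the 23.3% of all tested genes. Their median log2-fold change was −0.01, with 13 genes above and 13 below 0. The 4 genes were *SDC4* and *APP*, with log2-fold changes of 1.59 and 0.86, and the Notch ligand *JAG1* and the growth factor *HBEGF*, with −1.14 and −1.23. *JAG1* was at 10.9 and 29.2 CPM in the control and at 8.30, 10.5, and 8.53 CPM in the knockout pools (SE 0.43, edgeR adjusted p = 0.153). *APP*, the amyloid precursor protein, was at 32.8 CPM in both control pools and at 58.9, 61.9, and 58.1 CPM in the knockout pools (log2-fold change 0.86, SE 0.29, edgeR adjusted p = 0.109). *NOTCH1* was at 14.7 and 5.96 CPM in the control and at 14.4, 24.7, and 17.1 CPM in the knockout pools, which overlap (log2-fold change 0.86, SE 0.46, edgeR adjusted p = 0.294). Its log2-fold change was 1.65 without control pool 1 and 0.37 without control pool 2. *CD44*, the hyaluronan receptor, was at 88.2 and 49.5 CPM in the control and at 84.1, 128, and 97.8 CPM in the knockout pools (log2-fold change 0.59, SE 0.35, edgeR adjusted p = 0.352). Sialophorin (*SPN*) was the most abundant substrate, with means of 868 ± 212 CPM (SD, n = 2) in the control and 901 ± 166 CPM (SD, n = 3) in the knockout.

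All 6 subunit genes of γ-secretase were tested, and 2 passed as higher, beside 4.17% of all tested genes. The list was drawn up with earlier results known, so nothing is read from this count. *APH1A* (ENSG00000117362, minus strand of chromosome 1, 150265399 to 150269580), which encodes the scaffold subunit, was at 41.9 and 103 CPM in the control and at 400, 398, and 367 CPM in the knockout pools. Its log2-fold change was 2.42 (SE 0.42, edgeR adjusted p = 0.0171), and the control pools differed 2.45-fold. Without control pool 1 it was 1.93, and without control pool 2 it was 3.24. It shares exons with *C1orf54* on the opposite strand, and *PSEN2* with an unnamed gene on its own strand. *PSEN2* (ENSG00000143801, plus strand of chromosome 1, 226870184 to 226927726), which encodes a catalytic subunit, was at 7.19 and 6.26 CPM in the control and at 31.4, 27.1, and 20.5 CPM in the knockout pools. The log2-fold change was 1.97 (SE 0.37, edgeR adjusted p = 0.0219). Both genes had no overlap between the groups, and neither passed when any 1 knockout pool was left out, where adjusted p-values from edgeR lay between 0.0519 and 0.0786.

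*PSENEN*, which encodes the smallest subunit, pointed the other way. It was at 136 and 69.7 CPM in the control and at 45.4, 40.3, and 35.8 CPM in the knockout pools. In edgeR it missed the threshold (log2-fold change −1.35, SE 0.34, edgeR adjusted p = 0.0522), whereas in DESeq2 it passed (adjusted p = 0.0133). Without control pool 1 its log2-fold change was −0.77, and without control pool 2 it was −1.72 and *PSENEN* passed (edgeR adjusted p = 0.0157). It also passed without the filter on low counts (edgeR adjusted p = 0.0457), with library size alone, and in thinned libraries. It shares exons with other annotated genes on both strands, so its count is uncertain. *NCSTN*, which encodes the subunit nicastrin, did not pass, and it had 8 or fewer counts in 3 of the 5 libraries.

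Few other ADAM genes or related proteases had enough counts to be tested. Of the 14 remaining ADAM genes listed, 7 had a row in the table and 2, *ADAM11* and *ADAM22*, had enough counts to be tested. *ADAM22*, which lacks protease activity, was at 9.69 and 5.66 CPM in the control and at 4.15, 5.05, and 4.87 CPM in the knockout pools (log2-fold change −0.71, SE 0.43, edgeR adjusted p = 0.364). Of 44 matrix metalloproteases, ADAMTS proteases, and astacins, 29 had a row and 10 were tested. *ADAMTS3*, which trims procollagens, was at 25.01 and 19.1 CPM in the control and at 19.7, 20.6, and 16.4 CPM in the knockout pools, at or above *ADAM17* in each library. In both lists together, 0 of 12 tested genes passed in edgeR and 0 in DESeq2, and 1 had an unadjusted p-value under 0.05, beside 23.3% of all tested genes. That gene was *MMP15*, a membrane-type matrix metalloprotease, at 3.75 and 4.17 CPM in the control and at 7.52, 11.4, and 10.96 CPM in the knockout pools (log2-fold change 1.32, SE 0.43, edgeR adjusted p = 0.106).

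The genes whose levels followed that of *ADAM8* most closely were *SRF*, *ARHGAP45*, *CDR2L*, *PIM3*, and *BLOC1S4*. Likeness was measured over the 5 libraries as the root-mean-square difference between log2 CPM values, each centred on the mean of the gene. That difference was 0.56 for *SRF*, 0.57 for *ARHGAP45*, 0.60 for *CDR2L*, and 0.69 for both *PIM3* and *BLOC1S4*. With 2 and 0 counts, the control values of *ADAM8* depend on the prior count of 2. The choice and order of these genes therefore rest in part on that prior count. Control counts were also low for *ARHGAP45* (6 and 3) and *CDR2L* (9 and 4). *SRF* encodes serum response factor. It was at 21.6 and 17.9 CPM in the control and at 278, 289, and 445 CPM in the knockout pools. Like *ADAM8*, all 5 of these genes had their highest level in the sgMTSS1_3 pool. *ARHGAP45* encodes a GTPase-activating protein and was at 1.88 and 0.894 CPM in the control and at 40.9, 47.5, and 52.2 CPM in the knockout pools. *PIM3*, a serine/threonine kinase, was at 18.4 and 15.8 CPM in the control and at 181, 246, and 276 CPM in the knockout pools. All 5 share with *ADAM8* the same libraries and a large difference between the groups, and this likeness is a description with no test.

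**Figure D4:**
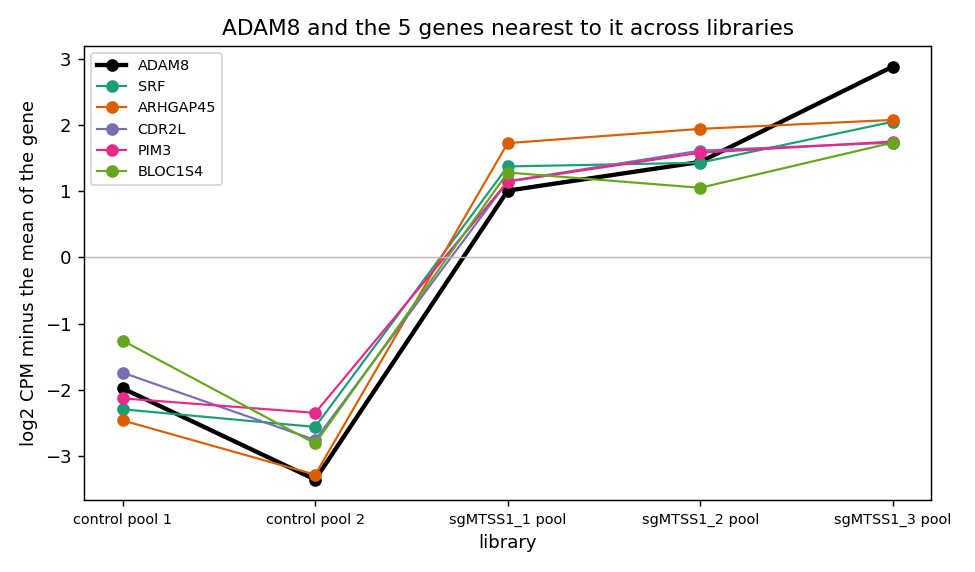
Log2 CPM of *ADAM8* and of the 5 tested genes nearest to it, each minus the mean of the gene, in the 5 libraries, with lines joining values of 1 gene. All 6 genes lie below 0 in both control pools and above 0 in the 3 knockout pools, and *ADAM8* spans the widest range. Its control values come from 2 and 0 counts, so that range depends on the prior count of 2. The other genes were chosen for their likeness to *ADAM8*, so the shared pattern is no test.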

How the data were processed

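RNA-seq was performed on 2 control and 3 *MTSS1* knockout pools of TF-1 clones. Per the labels and supplementary methods, QuantSeq 3′ FWD libraries were sequenced with single-end reads, adapters were trimmed with BBDuk, reads were aligned to GRCh38 with HISAT2 2.1.0, and reads that did not map uniquely were eliminated with SAMtools 1.10. The authors deposited raw counts for each Ensembl gene, as whole numbers and not normalized. The counting program, annotation release, and strand setting are not given in the sources used here, so reads of antisense partners cannot be told apart. Every listed gene has at least 3 counts in total. Libraries were grouped by sample titles.

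The counts were fitted here with edgeR 4.0.16 (R 4.3.3), using filterByExpr with a minimum count of 10, which kept 14391 of 27328 genes, TMM factors, and the quasi-likelihood test with the group as the only term. Each standard error is the log2-fold change divided by the root of its F value. DESeq2 1.42.0 was an alternative. Log2 CPM used a prior count of 2. The fit was tested on simulated data. Named genes are the members, *MTSS1*, 8 fixed pathway genes, up to 4 passing genes per list, and the 5 genes nearest to *ADAM8*; other genes named as examples or for a small count were chosen after their values were seen. The members and lists were chosen with earlier results of these data known. Symbols, positions, and overlaps come from GENCODE on GRCh38, and 27211 genes have a symbol. Nothing says that replicates were separate experiments beyond separate clone pools. The p-values thus set the group difference against the spread between pools, which in the knockout includes that between sgRNAs. Of the tested pathway genes, 1 is not reported here and not drawn. Figures were made in Python 3.11.15 with matplotlib 3.10.9.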

Additional observations from a re-analysis of the deposited data

How the results depend on the processing

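Members kept the direction of their log2-fold changes in all alternatives run, except *ADAM15*. Leaving out 1 library at a time gave between −1.98 and 0.38 for *ADAM15*, 4.62 and 9.46 for *ADAM8*, and −0.25 and −0.015 for *ADAM10*. Without the filter on low counts, *ADAM9* was at −0.43 and *ADAM10* at −0.008, and with library size alone *ADAM10* was at −0.30, while the median of all genes moved from −0.03 to −0.17. With at least 10 counts in every library, *ADAM8* was not among the genes tested. The number of all genes passing as higher, 600, became 1173 without the filter, 1042 with DESeq2, and 107 to 917 with 1 library left out. The number passing as lower, 145, became 232 with library size alone, 244 with DESeq2, and 4 to 432 with 1 library left out. Of the pathway genes, 1 to 4 passed as higher and 0 to 3 as lower with 1 library left out. The number passing as lower was 2 with library size alone, DESeq2, or thinned libraries, where *PSENEN* joined *TSPAN5*, and 0 with at least 10 counts in every library. In the 2 family lists, *MMP17* passed as lower without the filter, a count of 1, and the range with 1 library left out was 0 to 1. Where a single library was left in a group, it was assumed to vary like the other group. Apart from the smaller number of libraries or genes tested, the cause of these differences was not tested.

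The numbers 1 and 2 occur in both groups, but nothing says that pools of the same number were handled together, and over the tested genes the difference between pools 1 and 2 had a Pearson's r of 0.17 between the groups. With the number as a replicate block, 894 genes passed as higher and 200 as lower, *ADAM8* had a log2-fold change of 4.77, 4 pathway genes passed as higher and 1 as lower, and no member changed direction. In the control libraries, a gene such as *RHBDF2* gives 15 or 16 counts, which limits what can be shown for genes of that level.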

Other observations

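The control pools differed from each other in several genes of the shedding machinery, as they did in many other tested genes. Of 63 members and pathway genes with at least 3 counts in control pool 1, 14 (22.2%) were at least 2-fold higher in control pool 2, against 13.4% of 13941 tested genes. In the other direction, 7 (11.1%) were at least 2-fold higher in control pool 1, against 15.8% of tested genes. The limit of 3 counts applied to control pool 1 only, and some counted genes had few counts, such as *RHBDF1* with 4 and 16. The genes named next were singled out after their values were seen. The ratio of control pool 2 to control pool 1 was 7.62 for *SDC1*, 5.04 for *ADAM15*, 4.61 for *TNFRSF1B*, 4.08 for *PCSK7*, 2.85 for *SH3PXD2A*, and 2.84 for *TSPAN14*. The ratio of control pool 1 to control pool 2 was 2.47 for *NOTCH1*, 2.4 for *ICAM1*, 2.36 for *PRNP*, 2.27 for *NOTCH2*, 2.21 for *TIMP1*, and 2.1 for *APH1B*, and *JAG2* had 12 counts in control pool 1 and 2 in control pool 2. With control pool 2 as the only control, the log2-fold changes of *ADAM15*, *PCSK7*, *SH3PXD2A*, and *JAG1* were −1.98, −1.35, −1.33, and −1.67. These 4 genes are among those at least 2-fold higher in control pool 2, so nothing is read from these values. No replicate exists within a control pool, so the difference between the control pools was not tested.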
